A study of Mus musculus with 8 samples.

Results

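The constitutive proteasome was described through its subunit genes, taken from the deposited gene table by symbol: Psma, Psmb, Psmc, Psmd or Psme followed by a digit, leaving out the interferon-inducible Psmb8, Psmb9 and Psmb10. The pattern took 46 of the 37447 rows. Of these, 38 are the genes of the standard particle, of its activators and of chaperones that assemble its base, all called subunits here for short: 7 of the alpha ring (Psma1 to Psma7), 7 of the beta ring (Psmb1 to Psmb7), 6 ATPases (Psmc1 to Psmc6), 11 non-ATPase subunits of base and lid (Psmd1 to Psmd4, Psmd6 to Psmd8 and Psmd11 to Psmd14), 3 assembly chaperones (Psmd5, Psmd9 and Psmd10) and 4 activators (Psme1 to Psme4). The other 8 rows are 4 pseudogenes, a second short row of Psmd14, the tissue-restricted Psma8 and Psmb11, and Psmc3ip, a meiotic recombination cofactor that is not a proteasome subunit.

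The libraries came from microglia, the macrophages that reside in brain and nerve tissue, sorted from optic nerves of C57BL/6 mice at 3 months of age. FF mice have Nf1 flox/flox alleles and no Cre. FFC mice add GFAP-Cre, a recombinase under a promoter active in astrocytes, so the sorted microglia are not its target; all 8 libraries share the floxed alleles. The series concerns microglia in low-grade glioma, for which loss of Nf1 in such glia is a mouse model. Each genotype has 4 libraries, 2 from females and 2 from males, described as biological replicates; no label says if animals were pooled. Values are FPKM, fragments counted per length of transcript and per total of mapped fragments, which puts genes of unlike length on a common scale. Comparing levels between genes stays approximate, since how reads were split between genes and pseudogenes is not stated. The read depth behind the values is unknown. Sets of 4 values below run from replicate 1 to replicate 4. In such bulk samples, fewer cells expressing a gene and less RNA per cell cannot be told apart.

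The proteasome is the main protease of the cytosol and nucleus, and it degrades proteins tagged with ubiquitin chains. Its core particle is a barrel of alpha and beta rings, whose beta subunits Psmb5, Psmb6 and Psmb7 cut the substrate. A regulatory particle caps the barrel: its base holds the ATPases that unfold and thread the substrate, and its lid removes ubiquitin. The activators Psme1 to Psme4 open the barrel without ATP, and Psme1 and Psme2 (PA28 alpha and beta) are known to be induced by interferon together with Psmb8, Psmb9 and Psmb10, which replace the 3 constitutive catalytic subunits in antigen-presenting cells such as microglia.

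On the log2(FPKM + 1) scale most constitutive subunits had a higher mean in FFC than in FF microglia, but none passed the test, and the genotypes overlapped in all but 2 of those tested. A subunit was tested if its mean was at least 1 FPKM and no value was missing, which held for 37 of the 38; Psmc5 has a missing value in FFC 3. Of the 37, 29 had a higher mean log2(FPKM + 1) in FFC and 8 a lower one, with a median difference of 0.52 (FFC minus FF). By mean FPKM, which the highest libraries weigh on more, 23 of the 37 were higher in FFC. Higher and lower means below are on the log2 scale unless FPKM is named. Over all 17753 genes tested, 56.7% were higher and the median difference was 0.19. Over the 7057 of them whose mean reached 10 FPKM, 67.4% were higher and the median was 0.45. limma called 0 of the 37 at an adjusted p under 0.05 (smallest 0.712) and 0% of all genes. At an unadjusted p under 0.05 there were 2 subunits, Psmb3 and Psmb6, against 6.46% of all genes. In 2 subunits, Psma2 and Psmb6, every FFC value was above every FF value, which held for 3.05% of all genes. No subunit had every FFC value below every FF value, against 1.29% of all genes; without FF 2 and FF 4 there were 2 above (Psma2 and Psmb6) and 2 below (Psma6 and Psmd5), against 7.54% and 6.66% of all genes. Over the 43 rows of the pattern that were tested, 32 were higher and the median was also 0.52. Scaling the libraries to equal upper quartiles moved the median of all genes to 0.03 and that of the subunits to 0.30, with 25 of 37 higher. Without FF 1, the number of subunits with every FFC value above every FF value was 6 (Psma2, Psmb3, Psmb6, Psmc2, Psmd9 and Psme2), when it held for 6.81% of all genes.

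**Figure D1:**
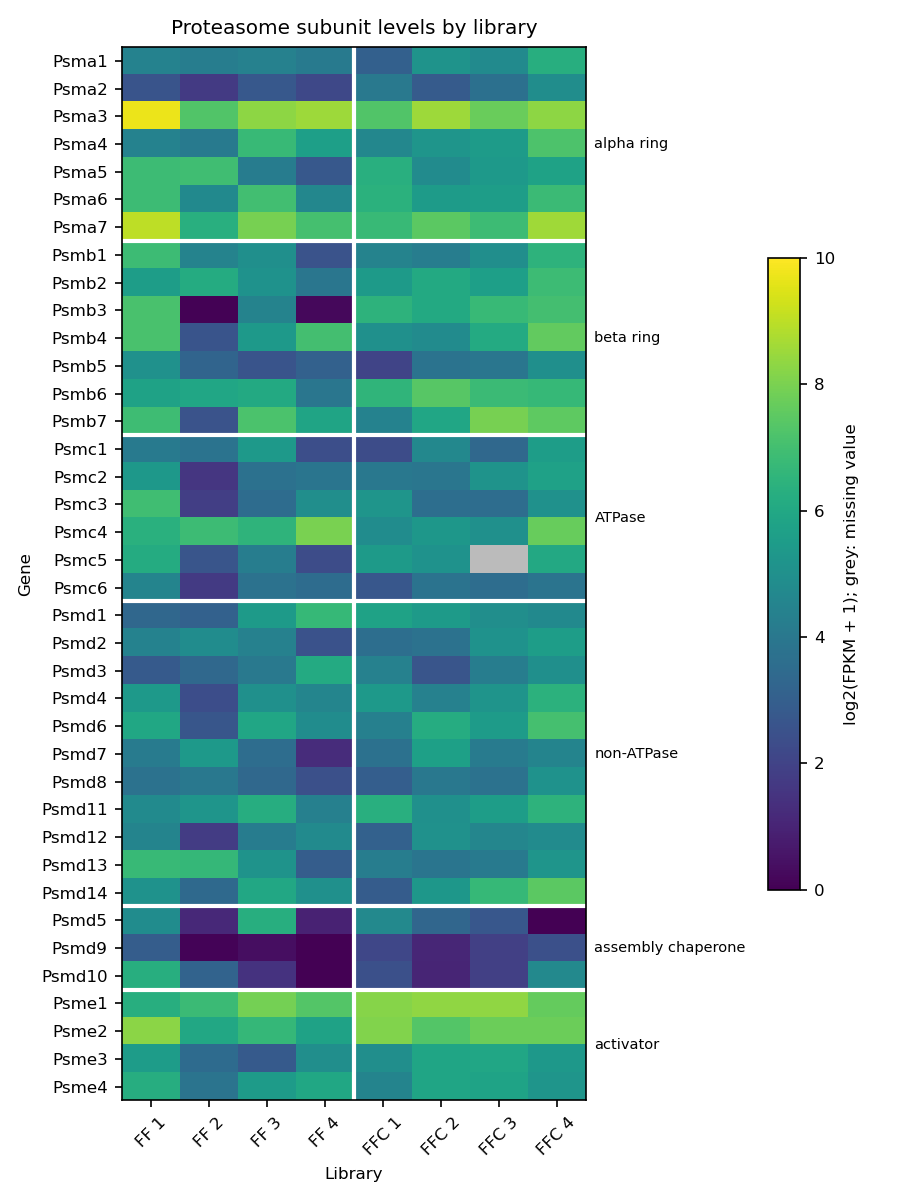
Level of the 38 subunits (rows, grouped by class) in the 8 libraries (columns), as log2(FPKM + 1); the missing Psmc5 value of FFC 3 is grey. Psmb3 is close to 0 in FF 2 and FF 4, and FF 2 is dark in 4 of the 6 ATPases, while Psma3 and Psma7 are bright in all 8 libraries.

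Libraries of the same genotype differed widely. The median level over the subunits, from replicate 1 to 4, was 45.8, 11.7, 32.5 and 17.9 FPKM for FF and 22.9, 32.9, 34.4 and 58.8 FPKM for FFC. FF 2 and FF 4 were the lowest libraries and FFC 4 and FF 1 the highest, so the genotypes overlapped. Of the 37 subunits, 28 had their lowest value in FF 2 or FF 4 (75.7%, against 39.35% of all genes tested) and 25 their highest in FF 1 or FFC 4 (67.6%, against 35.7%). Libraries with equal values, such as several at 0, were counted as the first of them only. The shares of all genes were not matched for level. These libraries were picked for their subunit medians, so the excess over all genes restates that choice and is no further support. FF 2 and FF 4 held 10 and 11 of the 38 subunits under 5 FPKM, and the others 0 to 4. Chemosensory receptor genes (Olfr, Vmn1r and Vmn2r symbols) took 1.85%, 4.52%, 1.68% and 3.56% of all FPKM across FF. Across FFC they took 1.63%, 1.25%, 1.35% and 0.727%. With that share as a covariate in the fit, the median difference of the subunits was -0.51 and 16 of 37 were higher. Every FF library had a higher share than every FFC library, so this fit cannot tell the share and genotype apart. Without FF 2 and FF 4 the median difference of the subunits was 0.04, with 21 of 37 higher, and the median over all genes was 0.08. Leaving out the FF libraries with the lowest subunit medians lowers FFC minus FF through the choice itself, so this is no independent check. The median was 0.19 without FF 2 alone and also 0.19 without FFC 4 alone.

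The month written in the sample titles ran with genotype, and what was done in that month is not stated in the labels: FF 1 to FF 3 and FFC 1 are from November, and FF 4 and FFC 2 to FFC 4 from December. Within December, with 1 FF library, the median subunit difference was 1.29 and 30 of 37 were higher in FFC. Within November, with 1 FFC library, it was -0.39 and 16 of 37 were higher. The pooled direction therefore did not hold within both months. The titles also seem to give a day, by which FFC 1 is later than every November FF library. Date thus ran with genotype within November as well. In December, FF 4 falls between FFC 3 and FFC 4. The median over all genes was 0.57 in December and -0.25 in November. Between females the subunit median was 0.40 and between males 0.90.

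By class, core subunits had a median difference of 0.40 (12 of 14 higher), base and lid with their chaperones 0.57 (14 of 19 higher, and 13 of 16 without the chaperones) and activators 1.06 (3 of 4 higher). Within the core, all 7 beta subunits and 5 of 7 alpha subunits had a higher mean log2(FPKM + 1) in FFC (medians 0.82 and 0.39); by mean FPKM 6 and 3 did. Within the regulatory particle, the ATPases had a median of 0.06 (4 of 5 tested higher, 2 by mean FPKM), the non-ATPase subunits 0.57 (9 of 11, 8 by mean FPKM) and the assembly chaperones -0.21 (1 of 3). No test was made between classes. Without FF 2 and FF 4 the core median was -0.06, and that of base and lid was 0.04. The activator median was 0.66 in that setting. Within months, the core median was 1.30 in December and -0.30 in November, that of base and lid 1.32 and -0.50, and that of the activators 0.78 and 1.05.

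**Figure D2:**
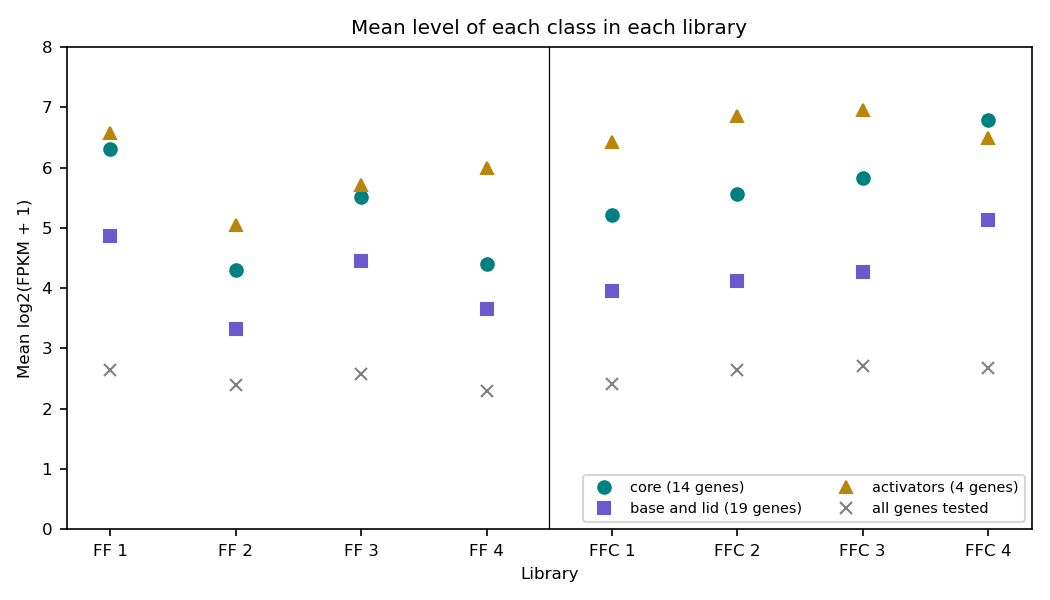
Mean log2(FPKM + 1) of core, base and lid and activator subunits in each library (x axis), with the mean of all genes tested as crosses. Core means lie between 4.31 and 6.30 across FF and between 5.21 and 6.78 across FFC; activator means lie between 5.04 and 6.58 and between 6.43 and 6.95.

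**Figure D3:**
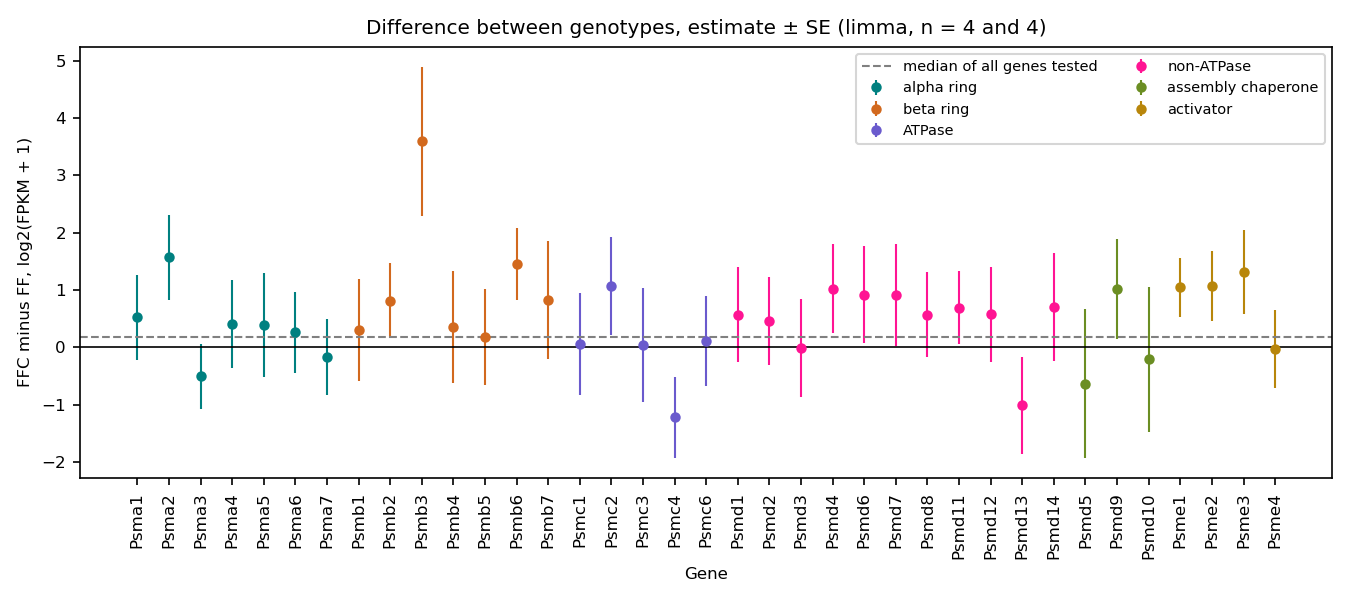
Difference of each tested subunit between genotypes (FFC minus FF on the log2(FPKM + 1) scale, points, with the limma standard error as bars), coloured by class. The dashed line at 0.19 is the median of all genes tested; Psmb3 is highest at 3.60 and Psmc4 lowest at -1.22.

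The listed FPKM within the particle were far from equal, although each alpha and beta subunit occupies the same number of places in the barrel. By the mean over the 8 libraries, Psma3 (340 FPKM), Psma7 (220 FPKM) and the activators Psme1 (215) and Psme2 (173) were the 4 highest. The order of these means differed between the genotypes: in FF they were 419, 244, 146 and 130 FPKM, and in FFC 262, 196, 283 and 216 FPKM, with Psme1 highest. The FF means of Psma3 and Psma7 lean on FF 1, at 834 and 519 FPKM (SD across FF 291 and 196). All 4 genes overlapped between the genotypes, so no difference in rank is established. Psma2 (9.87 FPKM) was the lowest of the alpha ring and Psmb5 (14.2 FPKM) the lowest of the beta ring. The median of the gene means was 57.3 FPKM in the alpha ring, 68.5 in the beta ring, 27.5 among the ATPases and 34.8 among the non-ATPase subunits. The assembly chaperones, which guide the base together and leave the finished particle, had the lowest median of the classes, 15.0 FPKM. They ran from 2.32 to 18.1 FPKM, a range that also held Psma2, Psmb5, Psmc6 and Psmd8. Within a library the coefficient of variation across the 14 core genes ran from 73.1% in FFC 4 to 169% in FF 4. Psma3 was the highest core gene in 6 of the 8 libraries, and the exceptions were Psmb7 in FFC 3 and Psma7 in FFC 4.

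Subunits varied together weakly, more within the alpha and beta rings than among the non-ATPase subunits. After the mean of each genotype was removed, the median Pearson correlation over the 8 libraries was 0.285 for the 666 pairs of the 37 subunits, and 73.6% of pairs were positive. Over all pairs of tested genes the median was 0.008 (50.7% positive), and over pairs of genes whose mean reached 10 FPKM it was 0.091 (57.0% positive). Among the beta subunits it was 0.475, among the alpha subunits 0.391, among the ATPases 0.261 and among the non-ATPase subunits 0.125. All pairs share the same 8 libraries and their scaling, so these are descriptions without a test. Without FF 2 and FF 4 the median was 0.325 for the subunits and 0.008 for all genes.

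The alpha ring forms the gate of the barrel. Psma2 (ENSMUSG00000015671, mm9 chromosome 13, 14705521 to 14719674), an outer-ring subunit, had 5.07, 2.23, 5.74 and 3.53 FPKM across FF and 15.5, 6.33, 11.9 and 28.6 FPKM across FFC. The 4 FFC values were all higher, though FFC 2 lay close to FF 3. The difference was 1.57 ± 0.74 (SE) on the log2(FPKM + 1) scale, with a limma adjusted p of 0.759. The exact permutation test (two-sided, as throughout) gave p = 0.0286, the smallest that 4 against 4 libraries allow. Every gene without overlap gets this p here and below, so it restates the separation and is no further support. The difference was 1.20 without FF 2 and FF 4, 1.70 within November and 1.64 within December. The genotypes did not overlap after upper-quartile, quantile or equal-sum scaling either. The other settings could not have made them overlap. Psma3 had 834, 155, 316 and 371 FPKM across FF and 156, 372, 207 and 313 across FFC (difference -0.50 ± 0.57, limma adjusted p = 0.802). Its values overlapped throughout. Psma1 had 20.5, 17.7, 19.9 and 16.2 FPKM across FF and 7.31, 33.7, 26.7 and 76.3 across FFC, where FFC 1 was the lowest and the other 3 the highest of all 8 (difference 0.52 ± 0.74, limma adjusted p = 0.846). The other 4 alpha genes, Psma4 to Psma7, had differences between -0.17 and 0.41.

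In the beta ring, Psmb6 (ENSMUSG00000018286, chromosome 11, 70338869 to 70341360), which carries the caspase-like activity, had 53.3, 59.3, 65.7 and 14.1 FPKM across FF and 91.4, 170, 111 and 104 FPKM across FFC. Means were 48.1 ± 23.2 and 119 ± 34.8 FPKM (SD, n = 4 each), and the groups did not overlap (difference 1.45 ± 0.62 SE, exact permutation p = 0.0286, limma adjusted p = 0.743). FF 4 stood below the other 3 FF libraries. The difference was 0.95 without FF 2 and FF 4, 0.62 within November and 3.06 within December. The genotypes overlapped after upper-quartile or quantile scaling, where Psma2 alone of the subunits was without overlap. The pseudogene row Psmb6-ps (chromosome X, 7527282 to 7527994) was listed at 244 FPKM in FF 1, at 0.572 in FF 4 and at 0 in the other 6 libraries. How the authors' counting split reads between a gene and its pseudogene is not stated, so both are uncertain. With both rows added, Psmb6 had 298, 59.3, 65.7 and 14.6 FPKM across FF and unchanged values in FFC, the genotypes overlapped, and the difference was 0.82 ± 0.78 (exact permutation p = 0.486; limma adjusted p = 0.766).

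Psmb3 (ENSMUSG00000069744, chromosome 11, 97564713 to 97574814), a non-catalytic beta subunit, had the largest difference of the 37. It had 139, 0.0501, 21.4 and 0.157 FPKM across FF and 88.5, 65.6, 105 and 129 FPKM across FFC. FF 2 and FF 4 were near 0 while FF 1 was the highest of all 8, so the groups overlapped (difference 3.60 ± 1.30, exact permutation p = 0.143, limma adjusted p = 0.712). Without FF 2 and FF 4 the difference was 0.77. With the chemosensory share, which ran with genotype, as a covariate it was 0.05. With a pseudocount of 0.1 it was 4.85 and with one of 5 it was 2.48. Psmb2 had 46.1, 70.5, 33.6 and 14.4 FPKM across FF and 42.8, 66.0, 49.3 and 116 across FFC (difference 0.82 ± 0.65, limma adjusted p = 0.759).

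The other 2 catalytic subunits showed no separation. Psmb5, with the chymotrypsin-like activity that proteasome inhibitor drugs target, had 32.3, 8.41, 5.12 and 7.58 FPKM across FF and 3.10, 12.8, 14.1 and 30.3 across FFC. FF 1 was the highest and FFC 1 the lowest of all libraries (difference 0.18 ± 0.84, limma adjusted p = 0.965, and -0.042 after upper-quartile scaling). Psmb7, with the trypsin-like activity, had 118, 4.96, 143 and 56.9 FPKM across FF and 20.5, 59.2, 246 and 182 across FFC, with FF 2 lowest (difference 0.83 ± 1.03, limma adjusted p = 0.823). Its copy Psmb7-ps2 held 45.6 FPKM in FF 4 and 0 to 1.78 FPKM elsewhere. Psmb1 and Psmb4 had differences of 0.30 and 0.36.

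**Figure D4:**
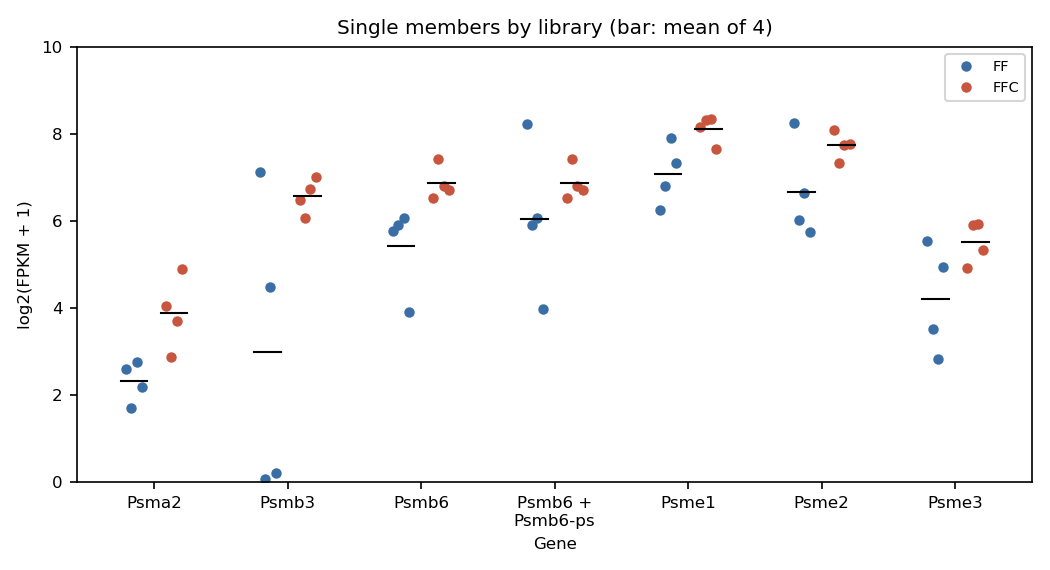
Log2(FPKM + 1) of 6 members, and of Psmb6 with its pseudogene added, in the FF (blue) and FFC (red) libraries, each point a library and each bar the mean of 4. Psma2 and Psmb6 do not overlap; with the copy added, FF 1 of Psmb6 lies above all FFC points, and Psmb3 has 2 FF points near 0.

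The start regions of 4 members are shown because they have no overlap (Psma2, Psmb6), the largest difference (Psmb3) or a known induction by interferon (Psme1). Each is the RefSeq stretch from 250 bases before to 50 bases after the transcript start, on the gene's strand, in GRCm38.p6 coordinates: Psma2 chr13:14612992-14613291 (+), Psmb3 chr11:97703184-97703483 (+), Psmb6 chr11:70525107-70525406 (+) and Psme1 chr14:55578244-55578543 (+). Capitals mark matches to TGACNNNGC, the core of the antioxidant response element bound by NRF1 and NRF2, in Psmb6, and to GAAANNGAA, the core of the interferon-stimulated response element, on the reverse strand in Psmb3 and Psme1. Psma2 has neither.
Psma2: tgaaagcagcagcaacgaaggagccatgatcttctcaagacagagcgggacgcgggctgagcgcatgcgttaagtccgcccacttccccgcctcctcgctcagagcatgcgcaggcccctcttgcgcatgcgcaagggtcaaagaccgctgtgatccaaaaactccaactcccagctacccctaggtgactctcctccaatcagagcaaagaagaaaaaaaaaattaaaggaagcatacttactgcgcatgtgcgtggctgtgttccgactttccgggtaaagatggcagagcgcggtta
Psmb3: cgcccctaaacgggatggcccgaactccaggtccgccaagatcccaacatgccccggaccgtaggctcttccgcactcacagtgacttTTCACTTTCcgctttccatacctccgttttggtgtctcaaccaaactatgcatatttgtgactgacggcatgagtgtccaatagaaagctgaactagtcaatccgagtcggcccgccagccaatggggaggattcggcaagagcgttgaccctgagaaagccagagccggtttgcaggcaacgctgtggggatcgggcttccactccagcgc
Psmb6: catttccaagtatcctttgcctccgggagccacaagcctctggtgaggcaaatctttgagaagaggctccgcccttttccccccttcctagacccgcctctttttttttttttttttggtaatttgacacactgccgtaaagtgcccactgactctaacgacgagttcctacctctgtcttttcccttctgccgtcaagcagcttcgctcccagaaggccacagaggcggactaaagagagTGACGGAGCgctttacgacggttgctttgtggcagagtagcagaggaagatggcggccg
Psme1: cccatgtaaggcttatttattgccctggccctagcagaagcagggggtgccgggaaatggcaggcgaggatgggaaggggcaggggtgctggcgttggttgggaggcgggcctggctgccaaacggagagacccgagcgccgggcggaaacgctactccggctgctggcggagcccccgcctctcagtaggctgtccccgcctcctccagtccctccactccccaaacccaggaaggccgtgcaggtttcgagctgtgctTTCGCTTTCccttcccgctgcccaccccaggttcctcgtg

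In Psmb6 the match begins 9 bases before the transcript start, in Psmb3 162 bases before it and in Psme1 10 bases after it. Both strands were searched, and no 2 matches overlapped. Of the 38 subunit genes 32 had an entry, with 35 start regions in all. TGACNNNGC was in 6 of the 35 (17.1%; Psmb5, Psmb6, Psmc6, Psmd9, Psmd12 and Psme4) and in 12.4% of all 32851 start regions of the same length. GAAANNGAA was in 6 of the 35 (17.1%; Psmb3, Psmb4, Psmc2, Psmd4, Psmd9 and Psme1) and in 8.56% of all. A match is a run of letters and not a measured binding site.

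The ATPases form the ring that unfolds substrates. Psmc2 had 38.9, 1.96, 12.2 and 13.9 FPKM across FF and 14.9, 14.3, 34.4 and 52.4 across FFC, with FF 2 far below the rest (difference 1.08 ± 0.85, limma adjusted p = 0.759). Psmc4 (ENSMUSG00000030603, chromosome 7, 28826726 to 28835120) had the lowest difference of the 37, -1.22 ± 0.71 (limma adjusted p = 0.759, exact permutation p = 0.143). It had 81.2, 114, 90.1 and 253 FPKM across FF and 28.4, 38.2, 31.0 and 201 across FFC. FFC 4 stood apart from the other 3 FFC libraries, all of which were below every FF library. Without FFC 4, Psmc4 was thus the 1 subunit of 37 with every FFC value below every FF value. In that setting this held for 1.99% of all genes. Psmc6 had 21.6, 2.22, 12.8 and 10.5 FPKM across FF and 5.64, 13.1, 10.8 and 13.5 across FFC (difference 0.12 ± 0.78, limma adjusted p = 0.974, and -0.077 after upper-quartile scaling). Psmc1 and Psmc3 had differences of 0.06 and 0.04. Psmc5, which was not tested, had 70.6, 5.24, 17.9 and 4.03 FPKM across FF and 43.2, 33.2 and 64.1 in FFC 1, FFC 2 and FFC 4.

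Among the non-ATPase subunits, Psmd4, a ubiquitin receptor of the base, had 39.9, 4.20, 31.4 and 22.2 FPKM across FF and 41.2, 20.2, 35.0 and 84.7 across FFC (difference 1.03 ± 0.78, limma adjusted p = 0.759). FF 2 was lowest and FFC 4 highest, and the rest overlapped. Psmd6, a lid scaffold subunit, had 60.3, 5.32, 59.4 and 28.1 FPKM across FF and 19.2, 71.8, 43.9 and 130 across FFC (difference 0.92 ± 0.85, limma adjusted p = 0.764). Psmd13, another lid subunit, went the other way, with 107, 101, 34.0 and 6.76 FPKM across FF and 18.1, 13.8, 16.1 and 36.5 across FFC (difference -1.01 ± 0.85, limma adjusted p = 0.759). FF 1 and FF 2 were its 2 highest libraries. Psmd14, the lid enzyme that removes ubiquitin chains, had 33.1, 9.79, 63.6 and 31.1 FPKM across FF and 6.52, 38.0, 102 and 176 across FFC, with FFC 1 lowest and FFC 4 highest of all 8 (difference 0.70 ± 0.94, limma adjusted p = 0.836). The other 7 had differences from -0.01 (Psmd3) to 0.91 (Psmd7). The base as a whole (ATPases with Psmd1, Psmd2 and Psmd4) had a median of 0.29 and the lid 0.63.

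The assembly chaperones had values at or near 0 in some libraries of both or one genotype. Psmd9 had 6.69, 0.0773, 0.297 and 0 FPKM across FF (the 0 of FF 4 is as listed), and 3.33, 1.10, 2.73 and 4.37 across FFC (difference 1.02 ± 0.87, limma adjusted p = 0.759). Psmd10 (gankyrin) had 76.2, 8.13, 1.75 and 0 FPKM across FF, with FF 4 again listed at 0, and 4.44, 1.05, 2.69 and 25.4 across FFC (difference -0.21 ± 1.26, limma adjusted p = 0.972). Psmd5 had 27.7, 1.25, 75.8 and 0.950 FPKM across FF and 24.9, 8.73, 5.50 and 0.0208 across FFC (difference -0.63 ± 1.30, limma adjusted p = 0.901). All 3 overlapped between the genotypes.

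Of the activators, Psme1, Psme2 and Psme3 had higher means in FFC by similar amounts and Psme4 did not. Psme1 (ENSMUSG00000022216, chromosome 14, 56196960 to 56200366) had 75.6, 111, 240 and 159 FPKM across FF and 287, 321, 324 and 199 across FFC. Means were 146 ± 71.2 and 283 ± 58.2 FPKM (SD, n = 4 each), and the groups met only where FFC 4 lay below FF 3 (difference 1.05 ± 0.51, exact permutation p = 0.0571, limma adjusted p = 0.759). Its difference was 1.04 without FF 2 and FF 4, and it was 1.18 in November and 0.78 in December. Psme2 (ENSMUSG00000079197, chromosome 14, 56206278 to 56209950), its partner in the ring, had 304, 63.5, 99.4 and 52.6 FPKM across FF and 273, 161, 213 and 217 across FFC, with FF 1 the highest of all (difference 1.07 ± 0.60, limma adjusted p = 0.759). Without FF 2 and FF 4 its difference was 0.28. The copy Psme2b-ps was abundant, at 8.20, 39.4, 165 and 45.8 FPKM across FF and 236, 157, 181 and 83.0 across FFC, 2.63% to 62.3% of the sum of both rows. Added together the rows gave 312, 103, 264 and 98.4 FPKM across FF and 509, 317, 394 and 300 across FFC, which overlapped only between FF 1 and FFC 4 (difference 1.12 ± 0.53, exact permutation p = 0.0571, limma adjusted p = 0.759).

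Psme3 (PA28 gamma), the nuclear activator, had 45.5, 10.4, 6.07 and 29.6 FPKM across FF and 29.3, 58.5, 59.6 and 38.9 across FFC (difference 1.31 ± 0.73, limma adjusted p = 0.759). FF 2 and FF 3 were its lowest libraries, and FFC 1 and FFC 4 lay within the FF range. Psme4 (PA200), which acts on acetylated histones, had 75.0, 13.3, 43.6 and 60.7 FPKM across FF and 22.1, 57.2, 54.5 and 36.4 across FFC, a complete overlap (difference -0.03 ± 0.69, limma adjusted p = 0.993).

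The inducible counterparts were set against the constitutive subunits they replace. Psmb8 had 79.3, 54.1, 53.0 and 39.4 FPKM across FF and 157, 85.8, 164 and 168 across FFC, and Psmb10 had 30.1, 34.4, 26.7 and 21.5 and 79.5, 47.6, 54.4 and 104, both without overlap (differences 1.33 ± 0.53 and 1.26 ± 0.57, limma adjusted p = 0.729 and 0.758). Psmb9 had 61.7, 12.6, 126 and 20.2 FPKM across FF and 85.3, 100, 47.2 and 118 across FFC, with overlap. A second row of Psmb9 at nearly the same position held 0.927 to 13.0 FPKM. Of these 4 rows, 2 had every FFC value above every FF value, against 3.05% of all genes.

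The ratio of an inducible to a constitutive subunit within a library does not depend on how that library was scaled, apart from the pseudocount. The log2 ratio of Psmb8 to Psmb5 was 1.27, 2.55, 3.14 and 2.23 across FF and 5.26, 2.65, 3.45 and 2.43 across FFC. Both groups were above 0, so the inducible subunit had the higher level in all 8 libraries, and the groups overlapped (difference 1.15, exact permutation p = 0.171, or 0.714 after adjustment over the 5 ratios). It was 0.54 without FFC 1 and 0.81 without FF 1. The ratios of Psmb9 to Psmb6 and Psmb10 to Psmb7 differed by -0.34 and 0.44 (exact permutation p = 0.657 and 0.686), and those of Psme1 and Psme2 to Psme3 by -0.27 and -0.24 (exact permutation p = 0.686 and 0.714). The adjusted p of each was 0.714. Single libraries turned the sign of the last 4: without FF 3 they were 0.01, -0.10, 0.47 and 0.21, without FFC 1 that of Psmb10 to Psmb7 was -0.31, and without FFC 2 that of Psme2 to Psme3 was 0.02. Each ratio ranged widely within FF, for example from -2.38 to 2.57 for Psmb10 to Psmb7.

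**Figure D5:**
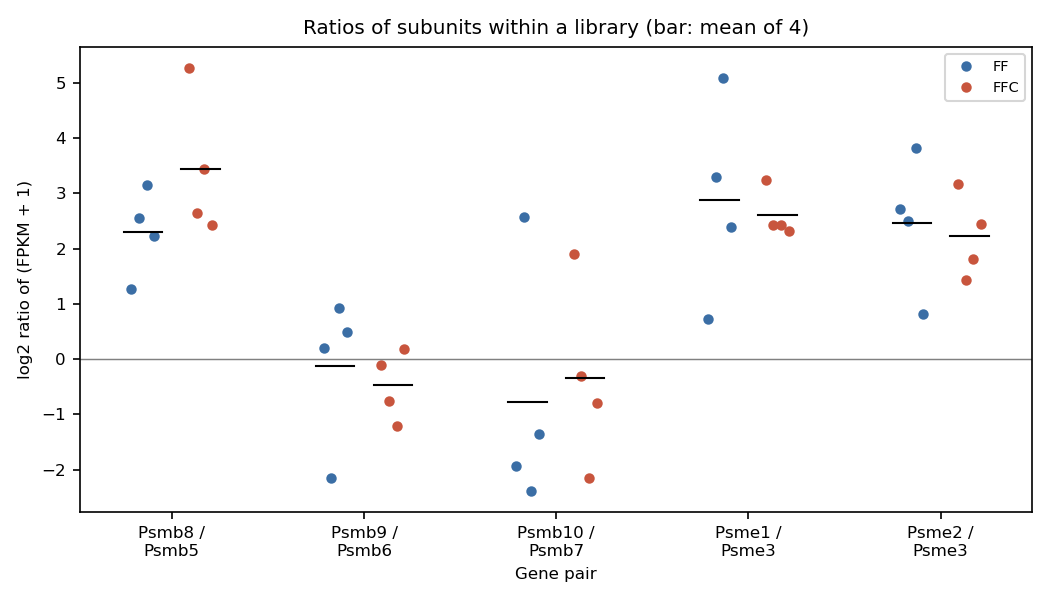
Log2 ratio of (FPKM + 1) between pairs of subunits in the FF (blue) and FFC (red) libraries, each point a library and each bar the mean of 4. The 5 pairs overlap between the genotypes; Psmb8 to Psmb5 runs from 1.27 to 3.14 across FF and from 2.43 to 5.26 across FFC.

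Genes that act with the proteasome were read from lists, in which limma called 0 of the tested members (0% of all genes). Of 5 assembly factors of the core, 4 had a higher mean log2(FPKM + 1) in FFC, and 3 a higher mean FPKM. Pomp, the factor that matures the beta ring, had 227, 39.2, 359 and 26.7 FPKM across FF and 638, 372, 244 and 432 across FFC (difference 2.03 ± 0.78, limma adjusted p = 0.712). FF 3 lay inside the FFC range, and without FF 2 and FF 4 the difference was 0.48. Psmg3 had 0, 0, 2.59 and 12.5 FPKM across FF (FF 1 and FF 2 as listed), and 0.484, 16.2, 19.1 and 35.0 across FFC. Psmg2 had 1.52 to 23.7 FPKM across FF and 2.08 to 51.4 across FFC, and Psmg4 had 0 to 159 and 0.471 to 27.9.

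Of 12 other proteins bound to the particle, 9 had a higher mean log2(FPKM + 1) in FFC and 8 a higher mean FPKM. The 3 lower ones were Vcp (-0.39), Adrm1 (-0.36) and AI314180 (-0.33). Shfm1, a small lid subunit outside the symbol pattern, had 280, 19.2, 60.1 and 1.34 FPKM across FF and 105, 44.6, 87.1 and 318 across FFC. The shuttles Ubqln4 and Ubqln2 had 0.0675 to 5.21 and 0.831 to 7.32 FPKM across FF and 1.16 to 20.9 and 1.73 to 15.4 across FFC. Usp14, a deubiquitinase of the regulatory particle, had 48.6, 18.2, 30.5 and 7.50 FPKM across FF and 13.99, 67.9, 40.2 and 78.5 across FFC, with FF 4 lowest and FFC 4 highest.

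The transcription factor NRF1 is known to restore proteasome gene expression when proteasome activity is low. The 4 genes listed for this control, Nfe2l1, Nfe2l2, Ddi2 and Ngly1, all had a higher mean log2(FPKM + 1) in FFC, and all but Ngly1 a higher mean FPKM. Ddi2, the protease that activates NRF1, had 1.26, 0.815, 1.39 and 1.54 FPKM across FF and 9.10, 2.97, 2.65 and 2.53 across FFC, without overlap but at low levels (difference 1.09 ± 0.77, exact permutation p = 0.0286, limma adjusted p = 0.759). It was the 1 gene of the 4 with every FFC value above every FF value, against 3.05% of all genes. Nfe2l1, which encodes NRF1, had 35.5, 70.4, 22.9 and 23.6 FPKM across FF and 66.8, 36.0, 32.3 and 95.0 across FFC. Nfe2l2, which encodes NRF2, had 74.3, 54.1, 124 and 97.5 across FF and 124, 146, 149 and 133 across FFC, where FF 3 and FFC 1 were level. Ngly1 had 0.617 to 15.3 FPKM across FF and 3.53 to 9.26 across FFC. The ubiquitin genes Rps27a and Ubb had 182 to 1228 and 59.2 to 390 FPKM across FF and 396 to 1196 and 96.2 to 351 across FFC. The activating enzyme Uba1 has a missing value in FF 2 and was not tested.

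Other housekeeping complexes had differences in the same direction. The median difference was 0.62 for 78 tested cytosolic ribosomal protein rows (76 higher) and 0.91 for 80 respiratory chain and ATP synthase rows (64 higher), against 0.52 for the subunits. Rows without overlap and higher in FFC numbered 2 and 5, against 3.05% of all genes. No test of a difference between these groups was made.

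The rows outside the standard particle were low or irregular. Psmb11, the thymus-restricted beta subunit, had 1.12, 6.18, 0.0372 and 6.76 FPKM across FF and 0.0225 to 0.228 across FFC; its 2 highest libraries were FF 2 and FF 4. Psma8, the testis-restricted alpha subunit, had 0.183 to 2.95 FPKM across FF and 0.413 to 11.6 across FFC. Psmc3ip had 2.94, 0, 0.0367 and 4.66 across FF and 74.2, 11.2, 8.55 and 0.220 across FFC. Psmb5-ps was at 0 in all libraries but FF 3 (0.606 FPKM), and the second Psmd14 row was at or near 0 in all; these 2 rows did not reach the mean of 1 FPKM.

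The sort itself was checked against markers. The summed FPKM of 10 microglial markers was 1541 to 4582 across FF and 3051 to 5000 across FFC, with 8 of 10 higher in FFC and none at 0. All 4 T cell markers (20.4 to 130 FPKM across FF, 4.99 to 19.1 across FFC), all 4 erythroid markers (50.1 to 207 and 23.2 to 50.0) and all 4 oligodendrocyte precursor markers (1.32 to 36.9 and 0.116 to 3.78) had lower means in FFC. So had 3 of 4 neutrophil markers (186 to 2434 and 2.66 to 810), 5 of 8 astrocyte markers (114 to 320 and 91.6 to 188), 6 of 7 endothelial and mural markers (17.1 to 37.5 and 3.71 to 20.8) and 4 of the 5 neuronal markers found (0.0319 to 5.20 and 0.510 to 0.771). Of 6 oligodendrocyte markers, 4 were higher in FFC (11.7 to 41.8 and 10.3 to 50.5). Markers at 0 in some library were Cd3g and Cd3d, Olig1 and Olig2, Camp and S100a8, Gfap, Aqp4, Aldh1l1, Gja1 and Aldoc, Pdgfrb and Cldn5, Rbfox3, Snap25 and Stmn2, and Mobp and Mog. Every cell type has proteasomes, and the part of these cells in the subunit values was not tested.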

How the data were processed

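RNA of flow-sorted microglia was sequenced in 8 libraries. The authors deposited 1 table of FPKM values per gene and library. Tools named in the submitters' processing notes, without role or order, are Cufflinks 2.0.2, TopHat2 2.0.4, CASAVA 1.8.2 and Bowtie2 2.0.0, with build mm9. Not given in the sources used here are the annotation and how reads were assigned to copies. FPKM keep no counts, so no counting interval can be set. Table starts count from 0 (21680 gene lengths then match the GENCODE annotation, and 420 if they count from 1) and are printed from 1.

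Rows with a missing value (447) were dropped. The 17753 genes whose mean reached 1 FPKM were tested on log2(FPKM + 1), a scale that understates the change of low genes, with limma 3.58.1 in R 4.3.3 (two-sided, variances moderated by empirical Bayes along the expression trend; p adjusted by Benjamini-Hochberg over all these genes, threshold 0.05). Single values and ratios were compared by exact permutation over 70 arrangements. P-values measure only the spread between these libraries, which may be technical in part. Members and lists were chosen with earlier results of these data known. Members were named if the genotypes did not overlap, if they had 1 of the 3 smallest p of their class, or if they were catalytic subunits, their counterparts or activators, and from each pathway list up to 4 genes with the smallest p; Psmd14 was named after its values were seen. A few genes of the pathway lists are not reported here. The limma code was tested on simulated data. Start regions came from RefSeq (GRCm38.p6), matched by symbol. Summaries used scipy 1.17.1 and pandas 2.3.3 in Python 3.11.15. Alternatives were pseudocounts of 0.1 and 5; another filter (none, or 5 FPKM); scaling by upper quartile, by quantiles or to equal sums; sex, month, replicate number or chemosensory receptor share as a term; robust variances; array weights; each library left out, or FF 2 and FF 4; and, chosen after seeing the data, genes summed with their pseudogene or second rows.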

Additional observations from a re-analysis of the deposited data

Results flagged for a closer look

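In 4 of 60 groups of 4 libraries tested, 1 library stood apart by Dixon's criterion, the gap to the nearest library divided by the range and compared with its 5% critical value, which chance alone exceeds in about 1 of 20 groups. Psmb6 in FF 4 (14.1 FPKM) was low, with a ratio of 0.862. Psmc4 in FFC 4 (201 FPKM) was high, with 0.851. Psmd9 in FF 1 (6.69 FPKM) was high, with 0.872. The log2 ratio of Psme1 to Psme3 in FFC 1 (3.25) was high, with 0.880.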

How the results depend on the processing

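Of 884 values under alternative settings, 826 kept their direction and their side of the threshold or stayed within their limits, 53 changed sign and 5 moved. The cause was not tested. Sex as a term, robust variances and another filter cannot change the difference of a gene here. Part of the 826 was therefore fixed in advance, and the count is no measure of stability. The labels do not say that replicate numbers mark pairs, though same-numbered libraries have the same sex. Same-numbered libraries had correlations of -0.041, 0.034, -0.009 and -0.052, and the other pairs of an FF and an FFC library ran from -0.118 to 0.118. These values cannot settle if libraries were paired. The block cannot change a mean difference here, since each number holds 1 library of each genotype. With the replicate block the subunit median was 0.52, the smallest limma adjusted p 0.789 and the number called 0. The chemosensory receptor share was higher in every FF library than in every FFC library, so as a covariate it cannot be told apart from genotype. With it, 16 of 37 subunits were higher, and the medians were -0.51 for all, -0.57 for the core and -0.67 for base and lid. Differences were -0.51 for Psmb5, -1.69 for Psmb7, -0.51 for Psmc2, -1.19 for Psmc6, -0.47 for Psmd4, -1.06 for Psmd6, -0.57 for Psmb9 and -0.78 for Rps27a. Without FF 2 and FF 4 the core median was -0.058, with -0.16 for Psmb5, -0.58 for Psmb7, -0.65 for Psmc6, -0.17 for Psmd6, -0.086 for Psmb9 and -0.38 for Rps27a. With month as a covariate Psma1 was at -0.0016, Psmb5 at -0.24, Psmc6 at -0.19, Psmd10 at 0.67 and Psmd5 at 0.82. Under upper-quartile, quantile and equal-sum scaling Psmb5 was at -0.042, -0.0014 and -0.013 and Psmc6 at -0.077, -0.0057 and -0.049, and the subunit median was 0.30, 0.33 and 0.32. Psmd10 was 0.42 with a pseudocount of 0.1, Psme4 0.13 with array weights, and the ratio of Psmb9 to Psmb6 0.34 with copies summed. The subunits with every FFC value above every FF value numbered 1 under upper-quartile scaling, quantile scaling and summed copies. This held for 2.53%, 2.71% and 3.04% of all genes. Leaving out 1 library gave 2 to 6 such subunits, 6 without FF 1, and 4.27% to 6.81% of all genes. It gave -0.25 to 0.72 for Psmb5, -0.19 to 1.50 for Psmb7, -0.44 to 0.49 for Psmc6, -1.12 to 0.97 for Psmd10, -1.42 to 0.35 for Psmd5 and -0.54 to 0.26 for Psme4. For the ratios it gave -1.01 to 0.015 for Psmb9 to Psmb6, -0.31 to 1.55 for Psmb10 to Psmb7, -0.99 to 0.47 for Psme1 to Psme3 and -0.79 to 0.21 for Psme2 to Psme3. Read depth is unknown, so its limit on low values such as those of Psmd9 could not be set.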
